A study of Mus musculus with 12 samples.

Results

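The genes described here are 10 genes of the MHC class I presentation pathway: H2-K1, H2-D1, B2m, Tap1, Tap2, Tapbp, Psmb8, Psmb9, Psmb10 and Nlrc5. They were picked by symbol, and all 10 were present among 16703 genes of the whole-liver table and among 16273 genes of the table for liver sinusoidal endothelial cells (LSEC). The groups were whole liver on a NASH diet and on chow, and LSEC on a NASH diet and on chow, with 3 libraries each. NASH, nonalcoholic steatohepatitis, is fatty liver with inflammation and injury. All libraries came from C57BL/6 mice. The NASH diet was D09100301 of Research Diets, given for 36 weeks. The labels carry that text on the chow samples too, and they do not state age, sex or whether animals were pooled. LSEC were the CD146-positive fraction of non-parenchymal cells after CD11b-positive cells had been taken out with beads.

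MHC class I molecules show peptides from inside a cell to CD8 T cells, and they also inhibit natural killer (NK) cells. Proteasomes cut proteins into peptides, and in the immunoproteasome the subunits encoded by Psmb8, Psmb9 and Psmb10 take the places of the constitutive catalytic subunits encoded by Psmb5, Psmb6 and Psmb7. The transporter made of Tap1 and Tap2 carries the peptides into the endoplasmic reticulum, tapasin (Tapbp) holds the empty class I molecule beside it, and the heavy chain (H2-K1 or H2-D1 in this strain) pairs with beta-2 microglobulin (B2m). Nlrc5 encodes the class I transactivator, a nuclear protein that raises transcription of many of these genes. Interferon gamma, acting in part through Irf1, is the best known inducer of the pathway, and sinusoidal endothelial cells are known to present antigen to CD8 T cells.

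Members of the pathway lie close together in the genome. Coordinates are those of GENCODE M21 on mm10. Psmb9 (chr17:34181987-34187764, minus strand), Tap1 (chr17:34187553-34197225), Psmb8 (chr17:34197721-34201454) and Tap2 (chr17:34203527-34216321) stand side by side, the last 3 on the plus strand. Tapbp (chr17:33915899-33929292), H2-K1 (chr17:33996017-34000347) and H2-D1 (chr17:35262730-35267499) are on the same chromosome. B2m (chr2:122147686-122153083), Nlrc5 (chr8:94434356-94527272) and Psmb10 (chr8:105935735-105938444) lie elsewhere. Tap1 and Psmb9 point away from each other, and their RefSeq start sites are 226 bases apart.

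The promoter windows of 4 members are shown because these pairs carry the contrasts below: H2-K1 against H2-D1, and Tap1 against Psmb9. B2m is shown as the partner chain. Each window is RefSeq sequence of build GRCm38.p6, 250 bases before to 50 after the start site, on the strand of the gene. Capitals mark matches, on either strand, to the kB motif (GGGA, any 4 bases, then CC), the interferon-response core (TTTCNNTTC), the core of the X2 element (TGACG) and the Y box (CCAAT). The kB match in H2-K1, H2-D1 and B2m reads on both strands, so that 2 overlapping matches make 1 block of capitals.
H2-K1, chr17:34000298-34000597, minus strand: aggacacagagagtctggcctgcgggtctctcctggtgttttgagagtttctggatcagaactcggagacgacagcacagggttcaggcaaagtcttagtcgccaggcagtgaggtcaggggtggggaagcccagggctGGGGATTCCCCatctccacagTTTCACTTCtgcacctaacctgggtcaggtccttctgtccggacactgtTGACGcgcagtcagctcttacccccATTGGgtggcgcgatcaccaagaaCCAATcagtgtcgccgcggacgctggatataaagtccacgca
H2-D1, chr17:35262844-35263143, plus strand: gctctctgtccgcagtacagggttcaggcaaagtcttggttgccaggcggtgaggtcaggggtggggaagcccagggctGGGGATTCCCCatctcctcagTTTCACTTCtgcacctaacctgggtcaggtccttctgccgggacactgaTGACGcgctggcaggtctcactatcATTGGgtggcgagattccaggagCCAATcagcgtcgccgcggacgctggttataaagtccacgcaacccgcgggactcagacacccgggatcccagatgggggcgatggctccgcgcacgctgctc
B2m, chr2:122147437-122147736, plus strand: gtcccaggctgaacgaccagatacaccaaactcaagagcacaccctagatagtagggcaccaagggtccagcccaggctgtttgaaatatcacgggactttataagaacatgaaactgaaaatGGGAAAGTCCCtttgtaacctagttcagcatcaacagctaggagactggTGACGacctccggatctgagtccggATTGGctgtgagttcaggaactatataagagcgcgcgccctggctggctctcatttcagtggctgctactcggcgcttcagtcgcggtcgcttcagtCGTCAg
Tap1, chr17:34187306-34187605, plus strand: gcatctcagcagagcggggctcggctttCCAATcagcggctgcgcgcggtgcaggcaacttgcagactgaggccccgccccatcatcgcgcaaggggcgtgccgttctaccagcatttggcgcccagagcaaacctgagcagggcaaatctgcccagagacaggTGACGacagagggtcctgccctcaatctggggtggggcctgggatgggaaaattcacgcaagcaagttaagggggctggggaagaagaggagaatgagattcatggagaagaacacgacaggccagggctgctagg

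The H2-K1 and H2-D1 windows held the same matches in the same order: kB, the interferon-response core, X2 and 2 Y boxes. Of all 32851 promoter windows of this length, 20.73% held a kB match, 7.52% an interferon-response core, 20.81% an X2 core and 37.41% a Y box. The B2m window had kB, X2 and Y box matches but no interferon-response core of these letters. Other spellings of an interferon-response element were not searched, and the 7.52% leaves them out too. The search therefore does not show that the B2m window lacks such an element. The Tap1 window had 1 X2 core and 1 Y box, and it shares 275 bases with the window of Psmb9, so both genes carry those matches. A further motif, the interferon-gamma-activated GAS element (TTCNNNGAA), was found in the Psmb8 window and in 8.30% of all windows. Of the 10 members, 8 had a RefSeq window. A match of letters is a description and does not show that a factor bound there.

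The liver libraries held 47000197 to 57397720 recovered reads and the LSEC libraries 18527017 to 19402863. No member had fewer than 709 reads in a liver library or 431 in an LSEC library. The endothelial list summed to 472972 to 497730 normalized reads in the NASH LSEC libraries and 754880 to 794424 in the chow LSEC libraries. LSEC libraries also held reads of 15 hepatocyte markers, 48298 to 103572 in NASH and 8921 to 98815 in chow. Their 22 leukocyte and macrophage markers summed to 77807 to 94463 in NASH and 17287 to 48939 in chow. Nothing in the labels says that libraries came from separate animals, so p-values here cover only the spread among these libraries, which may be technical.

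In whole liver, 8 of the 10 genes were higher in NASH than on chow and none was lower (limma on log2 of normalized reads + 1, Benjamini-Hochberg adjusted p under 0.05 over all genes). Among all genes measured in liver, 25.0% were called higher, 21.0% lower and 46.0% in either direction. With libraries scaled by total reads, 47.2% of all liver genes were called higher and 5.41% lower, and 9 members were called higher. The median log2 fold change of the 10 members was 0.71, against 0.02 over all genes. The rises were moderate, between 1.4-fold for Tapbp and 2.44-fold for Psmb9. The genes not called were the heavy chain H2-K1 and the transactivator Nlrc5. For each of the 8 called genes every NASH library stood above every chow library, as it did for 29.8% of all liver genes (27.3% lay wholly below). Whole-organ reads cannot tell more cells of a type from more RNA per cell.

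**Figure D1:**
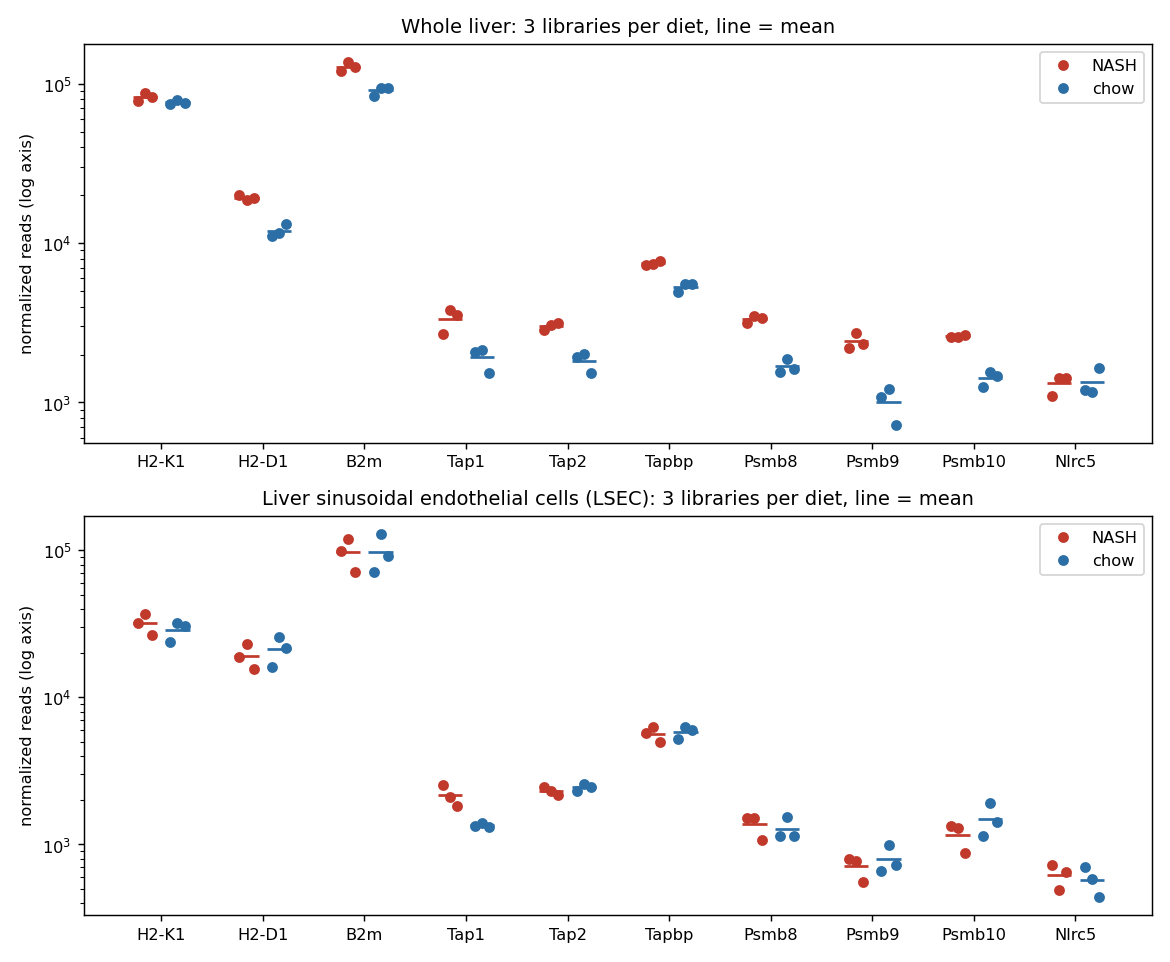
Normalized reads (log axis) of the 10 genes in each library, NASH in red and chow in blue, with the mean of 3 libraries as a line, for whole liver (top) and LSEC (bottom). In liver the diets separate for 8 genes and overlap for H2-K1 and Nlrc5; in LSEC they separate for Tap1 and overlap for the other 9.

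All 3 immunoproteasome subunit genes rose. Psmb9, which takes the place of Psmb6, had 2203, 2747 and 2340 normalized reads in NASH liver, against 1088, 1224 and 727 in chow liver. Its log2 fold change was 1.29 ± 0.18 (SE; limma, adjusted p = 0.000346). The lowest NASH library was above the highest chow library, and the third chow library lay below the other chow libraries. Psmb8, the counterpart of Psmb5, had 3154, 3465 and 3402 in NASH liver, against 1555, 1873 and 1629 in chow liver, a log2 fold change of 0.99 ± 0.10 (SE; limma, adjusted p = 5.02e-05). Psmb10, the counterpart of Psmb7, had 2591, 2565 and 2665 in NASH liver and 1253, 1550 and 1466 in chow liver, a log2 fold change of 0.88 ± 0.10 (SE; limma, adjusted p = 0.000102). The NASH libraries of Psmb10 lay close together, and the groups were far apart.

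The transporter genes and tapasin rose as well. The rise of Tap1 was not separated from that of Psmb10: it was smaller with all libraries but larger without the first NASH library (0.95 for Tap1 and 0.88 for Psmb10) or the first chow library (0.86 for Tap1 and 0.79 for Psmb10). Tap1 had 2673, 3780 and 3554 normalized reads in NASH liver, against 2088, 2138 and 1539 in chow liver, with a log2 fold change of 0.80 ± 0.16 (SE; limma, adjusted p = 0.00279). Tap2 had 2846, 3061 and 3140 in NASH liver, against 1924, 2025 and 1522 in chow liver, with a log2 fold change of 0.73 ± 0.11 (SE; limma, adjusted p = 0.00071). In both transporter genes the third chow library was the lowest of the 6. Tapbp had 7293, 7446 and 7669 in NASH liver, against 4946, 5547 and 5527 in chow liver, with a log2 fold change of 0.49 ± 0.08 (SE; limma, adjusted p = 0.00116).

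The chains of the class I molecule itself did not move alike. H2-D1 had 20000, 18659 and 19241 normalized reads in NASH liver, against 11038, 11615 and 13272 in chow liver, and its log2 fold change was 0.69 ± 0.10 (SE; limma, adjusted p = 0.00038). B2m had 120280, 136706 and 126561 in NASH liver, against 84268, 94130 and 94329 in chow liver, a log2 fold change of 0.49 ± 0.14 (SE; limma, adjusted p = 0.0151). The call for B2m ended when the first or the second chow library was left out (limma, adjusted p = 0.0846 and 0.0595). H2-K1 had 78315, 87303 and 82917 in NASH liver and 74305, 78645 and 76233 in chow liver. Its groups overlapped by a narrow margin, and its log2 fold change was 0.12 (95% interval -0.15 to 0.39; limma, adjusted p = 0.46). With libraries scaled by total reads, which moved the median of all liver genes by 0.401 on the log2 scale, H2-K1 was called higher at 0.53 (limma, adjusted p = 0.00131).

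The ratio of H2-D1 to H2-K1 within a library does not depend on that scaling. It was 0.255, 0.214 and 0.232 in NASH liver, against 0.149, 0.148 and 0.174 in chow liver. The NASH libraries were all above the chow libraries, 1.49-fold by the mean of the logs (two-sided exact permutation test, p = 0.1, the smallest that 3 against 3 libraries allow). This ratio was chosen after its values had been seen. Of the 50-base stretches of H2-K1 transcripts, 9.63% also occur in another gene, most of them in H2-Q10 (5.18%) and H2-D1 (4.08%), and 12.77% of those of H2-D1 do. H2-Q10, which encodes a class I-like protein secreted by liver, had 82171, 88074 and 76174 normalized reads in NASH liver, against 118483, 112033 and 98938 in chow liver. The labels do not say how reads common to these genes were counted, and its part in the H2-K1 value was not tested.

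Nlrc5 had 1100, 1432 and 1423 normalized reads in NASH liver, against 1204, 1161 and 1657 in chow liver. The groups overlapped. Its log2 fold change came to -0.02, with a 95% interval of -0.36 to 0.33 (limma, adjusted p = 0.941). The upper end of that interval is below the fold change of every called member of the pathway. Its sign turned without the third chow library (0.15) or the first NASH library (0.11). Scaled by total reads it was 0.40 and not called (limma, adjusted p = 0.0812).

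Levels were compared between genes per kilobase of annotated exon, with the exons of all annotated transcripts of a gene joined. On that scale B2m stood highest in NASH liver, with 148662 ± 9637 normalized reads per kb, against 105708 ± 6689 in chow liver (SD, n = 3 each). H2-K1 came next with 28198 ± 1530 in NASH liver and 26002 ± 740 in chow liver. H2-D1 followed with 7484 ± 261 in NASH liver and 4643 ± 450 in chow liver, and Nlrc5 was lowest with 155 ± 22.3 in NASH liver and 158 ± 32.4 in chow liver (SD, n = 3 each). In the middle of the order, the SD ranges of Psmb9 (664 ± 77.3) and Tap1 (609 ± 107) overlapped in NASH liver. In chow liver so did those of Psmb8 (499 ± 49.2) and Tap2 (482 ± 70.5), and of Tap1 (351 ± 60.6) and Psmb9 (277 ± 70.1). Such ranges ignore that both genes come from the same libraries. In each chow liver library the ratio of Tap1 to Psmb9 reads (1.92, 1.75 and 2.12) exceeded that of their exon lengths (5476 and 3660 bases), so Tap1 was higher per kb. The other pairs were not compared in that way. Other choices of length were not tried, and the order of genes close in level may depend on that choice.

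In LSEC, 1 of the 10 genes, the transporter gene Tap1, was called higher in NASH, and none was called lower. Of all LSEC genes 5.24% were called higher, 2.86% lower and 8.11% in either direction, and with scaling by total reads 7.15% were called higher and 1.68% lower. The median log2 fold change of the 10 members was -0.02, against 0.00 over all genes. Tap1 had 2552, 2104 and 1834 normalized reads in NASH LSEC, against 1331, 1399 and 1318 in chow LSEC. Every NASH library lay above the tightly grouped chow libraries, which was so for 16.5% of all LSEC genes (15.4% lay wholly below), and the log2 fold change was 0.67 ± 0.14 (SE; limma, adjusted p = 0.0367). This call rested on all 6 libraries: leaving out any 1 of them gave log2 fold changes of 0.54 to 0.78 with adjusted p of 0.0602 to 0.123 in limma. With all libraries Tap1 was also called by edgeR (adjusted p = 0.0392) and by DESeq2 (adjusted p = 0.00167) on the recovered reads.

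**Figure D2:**
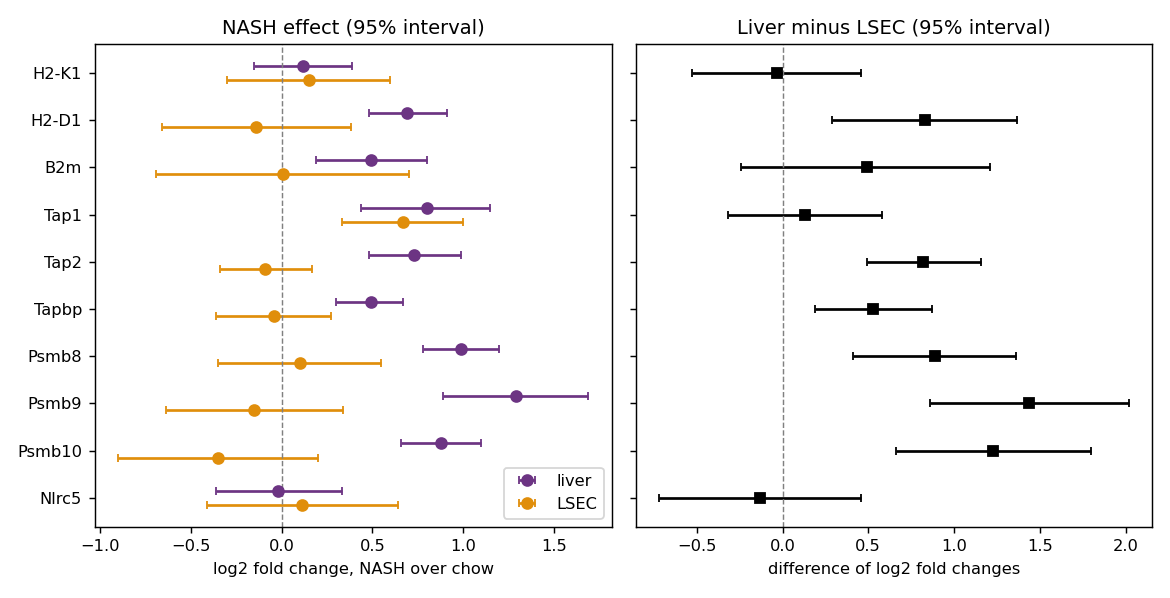
Left, log2 fold change of NASH over chow with its 95% interval in liver (purple) and LSEC (orange). Right, liver minus LSEC difference of these fold changes with its 95% interval. The LSEC intervals cross 0 for every gene but Tap1, and the difference is above 0 for H2-D1, Tap2, Tapbp, Psmb8, Psmb9 and Psmb10.

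The other transporter gene, Tap2, had 2457, 2315 and 2154 normalized reads in NASH LSEC, against 2314, 2574 and 2470 in chow LSEC, with a log2 fold change of -0.09 (95% interval -0.34 to 0.17). Its libraries were tightly grouped and overlapped between the diets. Within libraries the ratio of Tap1 to Tap2 was 1.04, 0.909 and 0.852 in NASH LSEC, against 0.575, 0.544 and 0.534 in chow LSEC (two-sided exact permutation test, p = 0.1, the smallest possible). In liver this ratio overlapped between the diets, with 0.939, 1.23 and 1.13 in NASH and 1.09, 1.06 and 1.01 on chow (exact permutation test, p = 0.7). This ratio, too, was chosen after its values had been seen.

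The immunoproteasome genes were not called in LSEC. Psmb8 had 1525, 1525 and 1068 normalized reads in NASH LSEC, against 1140, 1531 and 1147 in chow LSEC, a log2 fold change of 0.10 (95% interval -0.35 to 0.55). Psmb9 had 801, 769 and 558 in NASH LSEC, against 659, 987 and 728 in chow LSEC, a log2 fold change of -0.15 (-0.64 to 0.34). Psmb10 had 1326, 1291 and 882 in NASH LSEC, against 1147, 1915 and 1426 in chow LSEC, a log2 fold change of -0.35 (-0.90 to 0.20). For each of these 3 genes the diets overlapped, and the upper end of the LSEC interval was below the fold change measured in liver.

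The class I chains varied widely between LSEC libraries of 1 diet. B2m had 99369, 119007 and 71664 normalized reads in NASH LSEC, against 70669, 128443 and 92050 in chow LSEC, a log2 fold change of 0.01 (95% interval -0.69 to 0.70). That interval includes the rise seen in liver, so a change of that size was not detectable here. H2-K1 had 32231, 36917 and 26425 in NASH LSEC, against 23633, 31948 and 30454 in chow LSEC, a log2 fold change of 0.15 (-0.30 to 0.60). H2-D1 had 18716, 23187 and 15517 in NASH LSEC, against 16164, 25671 and 21706 in chow LSEC, a log2 fold change of -0.14 (-0.66 to 0.38). In all 3 genes the second library was the highest of each diet.

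Tapbp had 5756, 6250 and 4968 normalized reads in NASH LSEC, against 5210, 6290 and 5975 in chow LSEC, a log2 fold change of -0.04 (95% interval -0.36 to 0.27). Nlrc5 had 729, 487 and 647 in NASH LSEC, against 703, 585 and 441 in chow LSEC, a log2 fold change of 0.11 (-0.41 to 0.64). Both overlapped between the diets. Members tended to be high or low in the same LSEC libraries. The third NASH library had the lowest NASH value for 9 of the 10 genes, and the second chow library had the highest chow value for 9, with Nlrc5 apart in both. The second chow library also had the most hepatocyte marker reads on chow (98815), and the third NASH library the most in NASH (103572). Leukocyte and macrophage marker reads were highest in the first chow library (48939) and the second NASH library (94463). The first chow library had the lowest chow value for 8 members, and the second NASH library the highest NASH value for 4. The part of such reads in the members' spread was not tested. LSEC libraries are numbered by their position in the table, since no column carries a replicate number.

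The H2-D1 to H2-K1 ratio moved the other way in LSEC. It was 0.581, 0.628 and 0.587 in NASH LSEC, against 0.684, 0.804 and 0.713 in chow LSEC (two-sided exact permutation test, p = 0.1, the smallest possible). Every NASH library was below every chow library, while in liver every NASH library was above. Per kb, H2-D1 was close to H2-K1 in LSEC: 7421 ± 1494 against 10843 ± 1789 normalized reads per kb in NASH LSEC and 8213 ± 1852 against 9761 ± 1509 in chow LSEC (SD, n = 3 each). The SD ranges of chow LSEC overlapped, but they ignore that both genes come from the same libraries. In every LSEC library the read ratio was below that of the exon lengths (2579 bases for H2-D1 and 2938 for H2-K1). H2-D1 was thus the lower of the pair per kb in each. B2m was again highest and Nlrc5 lowest in both diets.

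The NASH effect itself differed between the tissues for 6 of the 10 genes, all with the larger fold change in liver, where 11.5% of the 15784 genes in both tables had such a difference. The test divided that difference by its standard error and used a t distribution, with Benjamini-Hochberg adjustment over all shared genes. The difference, liver minus LSEC, was 1.44 for Psmb9 (95% interval 0.86 to 2.02; limma estimates, adjusted p = 0.00213), 1.23 for Psmb10 (adjusted p = 0.00887), 0.89 for Psmb8 (adjusted p = 0.0159) and 0.82 for Tap2 (adjusted p = 0.00193). These 4 held when any 1 of the 12 libraries was left out. The differences of H2-D1 (0.83; adjusted p = 0.0382) and Tapbp (0.53; adjusted p = 0.0343) each lost their call in 6 of those 12 fits, with adjusted p up to 0.127 and 0.114. For H2-D1 those fits lacked liver chow library 1 or 2, LSEC chow library 2 or 3, or LSEC NASH library 1 or 3. For Tapbp they lacked liver NASH library 3, liver chow library 1, LSEC NASH library 1 or 3, or LSEC chow library 2 or 3.

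Tap1 (0.13; 95% interval -0.32 to 0.58), H2-K1 (-0.03; -0.53 to 0.46), Nlrc5 (-0.13; -0.72 to 0.46) and B2m (0.49; -0.24 to 1.21) did not pass this test. For B2m the interval spans both no difference and more than the whole liver effect. Whole liver holds LSEC among its cells, and the tables were normalized separately.

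Tap1 and Psmb9, which share the promoter window printed above, were both called higher in liver, while in LSEC Tap1 was called and Psmb9 was not. Within libraries, the ratio of Tap1 to Psmb9 was 1.21, 1.38 and 1.52 in NASH liver, against 1.92, 1.75 and 2.12 in chow liver. In NASH LSEC it was 3.19, 2.74 and 3.29, against 2.02, 1.42 and 1.81 in chow LSEC. The NASH libraries were all lower in liver and all higher in LSEC (two-sided exact permutation test within each tissue, p = 0.1, the smallest possible). This pair was chosen after its values had been seen. Their annotated exons overlap by 212 bases on opposite strands, which is 3.87% of the Tap1 and 5.79% of the Psmb9 exon length. The liver kit does not mark strand, and for LSEC no kit is named, so reads from that stretch cannot be told apart. The same holds where antisense genes overlap 24.92% of the exon length of Tapbp, 14.73% of that of Psmb8 and 14.1% of that of Tap2.

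**Figure D3:**
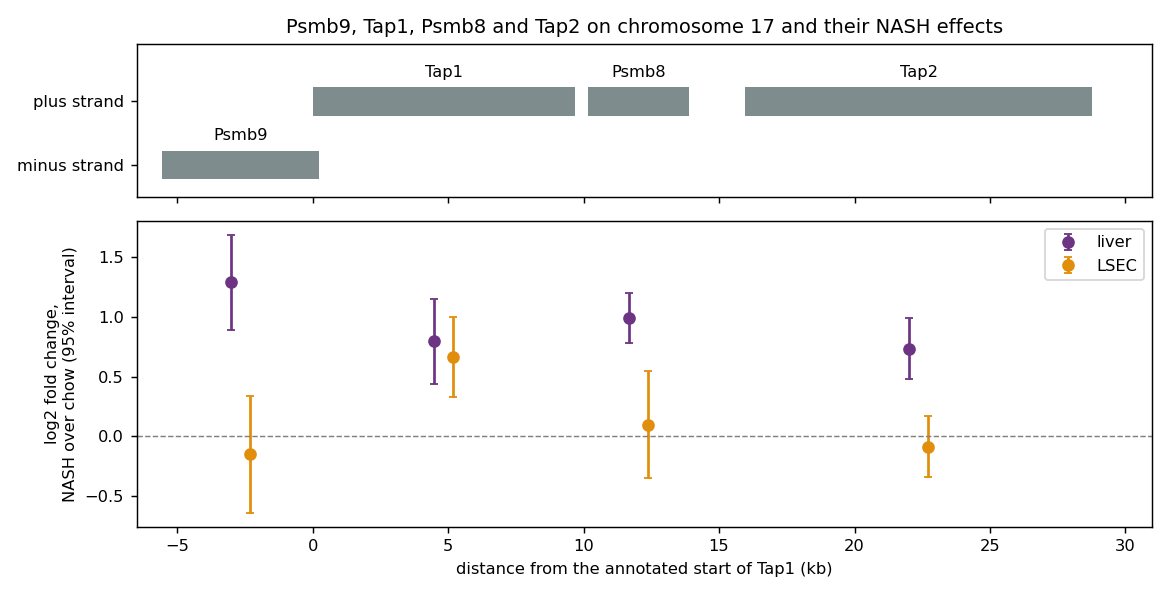
Top, the annotated spans of Psmb9, Tap1, Psmb8 and Tap2 by strand, against the distance in kb from the annotated start of Tap1. Bottom, log2 fold change of NASH over chow with its 95% interval in liver (purple) and LSEC (orange): all 4 genes are above 0 in liver, and Tap1 alone in LSEC.

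The immunoproteasome genes were then set against the constitutive subunits they replace. All 3 constitutive genes were called lower in NASH liver, where 21.0% of all genes were lower. Psmb7 had 5997, 6459 and 5352 normalized reads in NASH liver, against 8957, 9240 and 8290 in chow liver. Its log2 fold change was -0.58 (limma, adjusted p = 0.000961). Psmb6 was at -0.50 (adjusted p = 0.00174) and Psmb5 at -0.48 (adjusted p = 0.00432), but with scaling by total reads none of the 3 was called, at -0.16, -0.08 and -0.07 for Psmb7, Psmb6 and Psmb5. Ratios within a library are free of that choice. The ratio of Psmb8 to Psmb5 reads was 1.27, 1.52 and 1.54 in NASH liver, against 0.441, 0.547 and 0.578 in chow liver, 2.77-fold higher by the mean of the logs. For Psmb9 to Psmb6 it was 0.408, 0.576 and 0.506 in NASH liver, against 0.154, 0.168 and 0.112 in chow liver, 3.45-fold higher. For Psmb10 to Psmb7 it was 0.432, 0.397 and 0.498 in NASH liver, against 0.14, 0.168 and 0.177 in chow liver, 2.74-fold higher. In all 3 pairs the groups were far apart (two-sided exact permutation test, p = 0.1, the smallest that 3 against 3 allow, and 0.15 adjusted over the 6 ratios of both tissues).

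**Figure D4:**
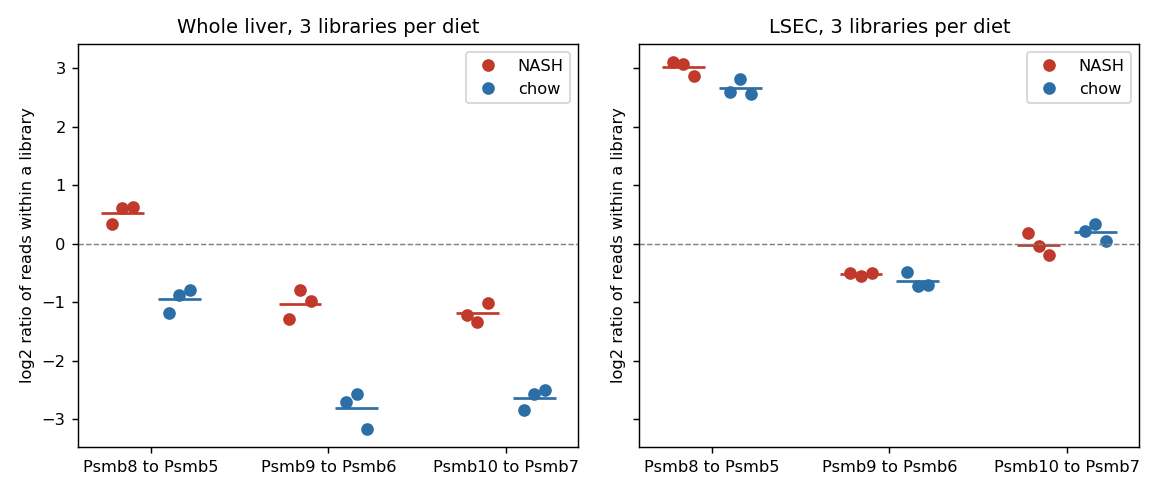
Log2 ratio of reads of each immunoproteasome subunit gene to its constitutive counterpart within a library, NASH in red and chow in blue, with the mean of 3 libraries as a line. In liver every NASH library is above every chow library for all 3 pairs; in LSEC this holds for Psmb8 to Psmb5 only.

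In LSEC these ratios lay closer together between the diets. Psmb8 to Psmb5 was 8.58, 8.42 and 7.27 in NASH LSEC, against 6.03, 7.04 and 5.87 in chow LSEC, with all NASH libraries higher (1.28-fold; exact permutation test, p = 0.1, adjusted 0.15). Psmb9 to Psmb6 was 0.707, 0.680 and 0.705 in NASH LSEC and 0.715, 0.608 and 0.610 in chow LSEC, with overlap (exact permutation test, p = 0.4). Psmb10 to Psmb7 was 1.13, 0.969 and 0.875 in NASH LSEC and 1.17, 1.27 and 1.03 in chow LSEC, also with overlap (exact permutation test, p = 0.2). The Psmb5 counts behind the first ratio were low, 147 to 181 normalized reads in NASH LSEC and 189 to 218 in chow LSEC. None of the 3 constitutive genes was called in LSEC.

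Most other proteasome genes were lower in NASH liver with the deposited normalization. Of 12 other genes of the 20S core and its assembly, 10 were called lower and none higher, and of 18 genes of the 19S regulatory particle 17 were lower and 1, Psmd8 (0.29), was higher, with medians of -0.41 and -0.58. Of all liver genes 25.0% were called higher and 21.0% lower. Scaled by total reads, 3 core genes were higher and none lower, and 6 genes of the 19S particle were lower and 1 was higher. The medians of these 2 lists were then 0.00 and -0.16, where 47.2% of all liver genes were higher and 5.41% lower. PA28, an activator linked to peptide production for class I, has 2 interferon-inducible subunits. Psme2 rose in liver by 0.25 (limma, adjusted p = 0.0297), and Psme1 was at 0.23 (adjusted p = 0.0563). Psme3, of the nuclear form, and Psme4, of the activator PA200, were lower at -0.25 and -0.68. Scaled by total reads, 2 of these 4 activator genes were higher and 1 was lower. In LSEC none of these lists had a called gene.

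Among 17 other class I heavy chain and class I-like genes, 14 were measured. In liver 8 of them rose and 3 fell, where 25.0% of all genes were higher and 21.0% lower. The largest rises among the 14 were those of H2-M2 and H2-Q1. H2-M2 had 449, 325 and 495 normalized reads in NASH liver, against 14.2, 15.1 and 15.4 in chow liver, a log2 fold change of 4.71 (limma, adjusted p = 1.15e-06). H2-Q1 had 2478, 3216 and 2487 in NASH liver, against 196, 218 and 281 in chow liver, a log2 fold change of 3.56 (adjusted p = 6.03e-07). Mr1, which presents vitamin B metabolites to MAIT cells, rose by 1.22, and H2-T10 by 1.54. The genes that fell were H2-Q10 (-0.42), the lipid-presenting Cd1d1 (-0.36) and the neonatal Fc receptor gene Fcgrt (-0.47). Scaled by total reads, 10 rose and none fell, beside the same 47.2% higher over all liver genes. H2-Q1 shares 5.87% of the 50-base stretches of H2-D1, so part of its reads is uncertain.

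In LSEC, 2 of these 14 genes rose and 2 fell, where 5.24% of all genes were higher and 2.86% lower. With total-read scaling 2 rose and 2 fell, where 7.15% of all LSEC genes were higher and 1.68% lower. H2-M2 had 69.6, 32.7 and 137 normalized reads in NASH LSEC, against 6.27, 3.26 and 5.12 in chow LSEC, a log2 fold change of 3.58 (limma, adjusted p = 0.0168). H2-Q1 was at 3.24 (adjusted p = 0.0276) on few reads, 17.4 to 55.8 in NASH LSEC and 1.04 to 5.44 in chow LSEC. Mr1 fell by 0.85 and Fcgrt by 0.94 on the log2 scale in LSEC (limma, adjusted p = 0.0228 and 0.0172). Mr1 was thus called in opposite directions in the tissues, with 502, 521 and 491 in NASH liver against 218, 201 and 229 in chow liver, and with 612, 571 and 720 in NASH LSEC against 1207, 987 and 1239 in chow LSEC. The liver minus LSEC difference of these fold changes was 2.07 (95% interval 1.66 to 2.49; limma estimates, adjusted p = 1.17e-05).

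Genes of peptide loading were called about as often as liver genes in general, or less, with the deposited normalization. Of 11, 2 rose, the tapasin-related Tapbpl (0.39) and the translocon gene Sec61b (0.44), and 2 fell, Ganab (-0.45) and Hspa5 (-0.37). Calreticulin (Calr, 0.05), calnexin (Canx, -0.05), Pdia3 (0.01) and the peptide-trimming Erap1 (-0.07) were not called. Scaled by total reads, 7 rose and none fell, beside 47.2% higher and 5.41% lower over all liver genes. None of the 11 was called in LSEC.

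Of 19 regulators of class I transcription, 8 rose in liver and none fell, where 25.0% of all genes were higher and 21.0% lower. With total-read scaling 13 rose and none fell, where 47.2% of all genes were higher. Among those with the smallest adjusted p were Ciita, the class II transactivator (3.0; limma, adjusted p = 8.82e-06), Irf8 (1.45) and Relb (1.74). Irf1 rose by 0.86 (adjusted p = 0.000902). Rfx5 (0.04), Rfxap (-0.20) and Rfxank (-0.08), the DNA-binding partners of Nlrc5 and Ciita, were not called. In LSEC, 2 of the 19 rose, among them Irf7, where 5.24% of all genes were higher. With total-read scaling 4 rose in LSEC, where 7.15% of all genes were higher. Irf7 had 4795, 4978 and 3157 normalized reads in NASH LSEC, against 1145, 1213 and 982 in chow LSEC, a log2 fold change of 1.93 (limma, adjusted p = 0.00493). Irf7 was also called higher in NASH liver, at 0.97 (limma, adjusted p = 0.00628). Its liver minus LSEC difference was -0.96 (95% interval -1.59 to -0.33; limma estimates, adjusted p = 0.0322), the opposite sign to the 6 members above. Irf1 varied widely in LSEC, with 13436, 3963 and 4834 in NASH and 3820, 8635 and 5260 on chow.

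On the interferon axis, 4 of 8 measured genes rose in liver and 1 fell, where 25.0% of all genes were higher and 21.0% lower. With total-read scaling 6 rose and none fell in liver, and 1 rose in LSEC. Of all genes 47.2% were then higher in liver and 7.15% in LSEC. Ifngr1, a chain of the interferon gamma receptor, rose by 0.80 (limma, adjusted p = 0.001), Jak2 by 0.50 and Ifngr2 by 0.44, and the type I receptor gene Ifnar2 fell by 0.27, a fall that was lost with scaling by total reads. Ifng itself had 9.18, 9.05 and 4.83 normalized reads in NASH liver, against 0, 3.24 and 1.03 in chow liver (adjusted p = 0.0228), close to the limit of counting. With the deposited normalization none of the 8 was called in LSEC.

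Genes of T and NK cells, among them cells that read class I molecules, were higher in part in NASH liver. Of 16 measured genes, Cd4 and general T cell genes included, 10 rose and none fell. Of all liver genes 25.0% were higher and 21.0% lower. With total-read scaling 13 of the 16 rose and none fell, where 47.2% of all liver genes were higher. The 16 genes summed to 1357 to 1943 normalized reads in NASH liver and 499 to 855 in chow liver. Cd8a had 159, 240 and 246 in NASH liver, against 93.7, 62.6 and 19.5 in chow liver, a log2 fold change of 2.09 (limma, adjusted p = 0.00597). Nkg7, of cytotoxic granules, was at 1.99 (adjusted p = 0.000213) and Klrd1, an NK receptor chain that reads class I, at 1.77 (adjusted p = 0.00177). Klrc1 (0.12), Klrk1 (0.53), Klrb1c (0.36), Ncr1 (1.19), Gzmb (0.86) and Prf1 (0.77) were not called in liver. In LSEC none of the 16 was called, with sums of 984 to 1530 in NASH and 787 to 2356 on chow.

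Leukocyte and macrophage markers were mostly higher in NASH liver. Of 22 such markers 16 rose and 1, the resident macrophage gene Timd4 (-2.02), fell, where 25.0% of all genes were higher and 21.0% lower. With total-read scaling 16 rose and 1 fell, where 47.2% of all genes were higher and 5.41% lower. The 22 markers summed to 107712 to 165189 normalized reads in NASH liver and 50414 to 71799 in chow liver. Ptprc, the pan-leukocyte CD45 gene, had 1986, 2407 and 3111 in NASH liver, against 878, 829 and 849 in chow liver, a log2 fold change of 1.53 (limma, adjusted p = 4.75e-05). Hepatocyte markers summed to 4211164 to 4765718 in NASH liver and 7966978 to 8532315 in chow liver, with 10 of 15 lower and none higher. With total-read scaling 9 of the 15 were lower and none higher. Of 16 endothelial markers 2 were higher and 8 lower in liver, and 2 were higher and 5 lower in LSEC, where no hepatocyte marker was called. Under scaling by total reads 6 endothelial markers were higher and 4 lower in liver, and 2 were higher and 2 lower in LSEC. The part of these changes in cell make-up in the members' rises was not tested. In LSEC 10 of the 22 leukocyte and macrophage markers rose and none fell, with either scaling. The median log2 fold change of all 22 was 1.32 there with the deposited normalization. Of all LSEC genes 5.24% were higher and 2.86% lower, and with total-read scaling 7.15% were higher and 1.68% lower. Of 14 stellate cell and cholangiocyte markers 11 rose in liver and 4 in LSEC, with none lower in either. With total-read scaling all 14 rose in liver and 4 in LSEC.

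**Figure D5:**
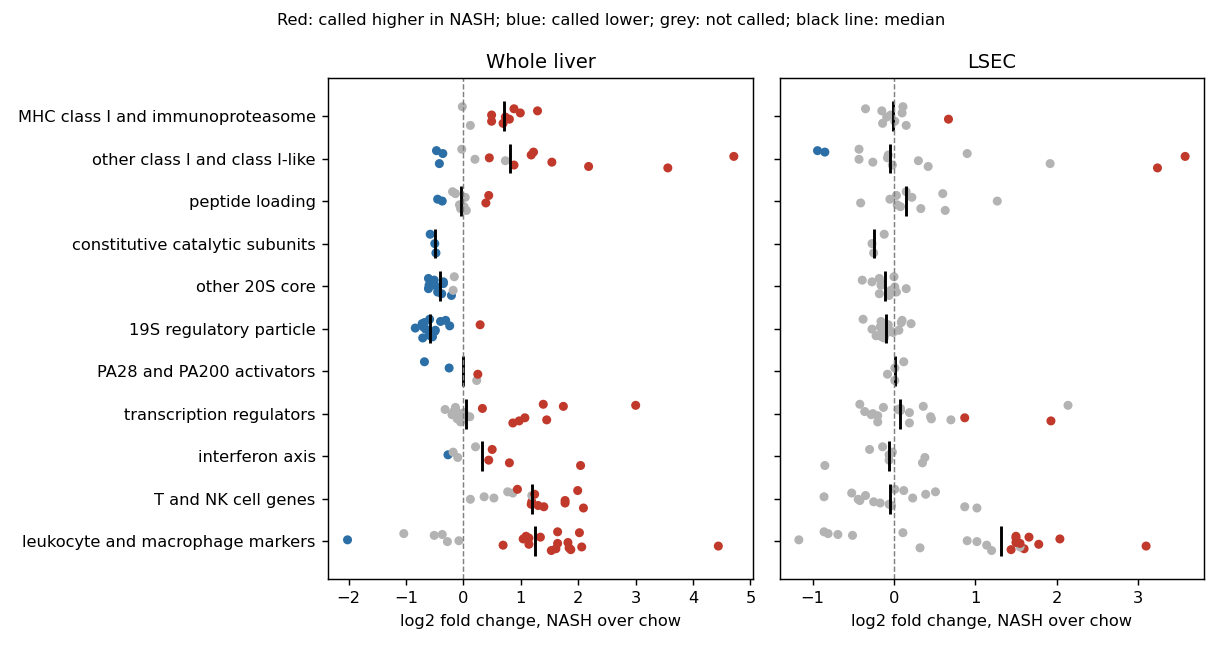
Log2 fold change of NASH over chow for each measured gene (points) of the 10 members and of 10 other lists in liver (left) and LSEC (right). Red points were called higher in NASH, blue points lower and grey points neither, and black lines are medians; the members' median is 0.71 in liver and -0.02 in LSEC.

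The genes whose pattern was most like the mean of the 10 members were found by the root mean square difference of log2 values, centred on the chow mean of each tissue, over the 12 libraries. Among 11278 other genes whose mean reached 50 normalized reads in both tables, the closest included Acyp2 (0.067), Armc10 (0.085), Snx1 (0.091), Wdr1 (0.097) and Abracl (0.106). Their log2 fold changes were 0.57 to 0.70 in liver and -0.07 to 0.07 in LSEC. The members themselves lay 0.111 (Tapbp) to 0.434 (Nlrc5) from their own mean. The 5 genes named were picked for their small distance among 11278, so that comparing them with the members decides nothing. The mean profile therefore stands for Tapbp, Tap2 (0.129), B2m (0.152) and H2-D1 (0.157) better than for H2-K1 (0.281), Tap1 (0.360) or Psmb9 (0.370).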

How the data were processed

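RNA-seq libraries of whole liver and of LSEC were deposited as 1 table per tissue. The submitters' processing notes name build mm10 and the tools STAR, HTSeq, FastQC, Seurat and DESeq2, without their settings. The deposited values are a normalized signal: read counts the authors divided by 1 factor per library. The authors' log2 fold changes, p-values and adjusted p-values stand beside them in the deposited tables and were not used for the results. Whole reads were recovered from the step between low values, for 100.0% of values in every library within 0.01. LSEC columns give the diet but no replicate number.

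Each tissue was tested alone with limma 3.58.1 (R 4.3.3), with a variance trend, on log2(normalized reads + 1), which understates changes of low genes, with no filter. The design named limma or edgeR by unit, and the deposited unit called for limma. Adjusted p-values are Benjamini-Hochberg values over all genes. edgeR 4.0.16 and DESeq2 1.42.0 on recovered reads were alternatives, with other pseudocounts, a filter, scaling by total reads, a stricter threshold, a replicate block and each library left out. Where 1 diet had 2 libraries left, the variance was pooled over both diets. Steps were tested on simulated data. Deviations from the diet mean correlated at -0.016 to 0.098 between NASH and chow liver libraries of the same replicate number. Between different numbers they correlated at -0.086 to 0.09. With 3 libraries per diet this check cannot show whether the numbers pair samples. Of 17186 symbols, 96.15% matched GENCODE M21. The members and gene lists were chosen with earlier results of these data known. The rule for named genes takes all 10 members, the 3 constitutive subunits, and up to 4 genes per list and tissue with the smallest adjusted p; others were named after their values were seen, and some genes the rule takes are not reported here.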

Additional observations from a re-analysis of the deposited data

Results flagged for a closer look

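For 6 members the test of the difference found unequal NASH effects in liver and LSEC. The liver minus LSEC difference of the log2 fold changes was 1.44 for Psmb9, 1.23 for Psmb10, 0.89 for Psmb8, 0.83 for H2-D1, 0.82 for Tap2 and 0.53 for Tapbp.

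For 2 ratios within libraries, every NASH library of one tissue moved one way against its chow libraries and every NASH library of the other tissue the opposite way. The liver minus LSEC difference of the log2 ratio was 0.87 for H2-D1 to H2-K1 and -1.31 for Tap1 to Psmb9. These 2 differences were not tested.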

How the results depend on the processing

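In liver 7 to 9 of the 10 members were called under every alternative run, with 9 under scaling by total reads and 7 at a threshold of 0.01. Of all liver genes, scaling by total reads called 8782 (7878 higher and 904 lower) and the threshold of 0.01 called 4960, against 7691 as reported. With the replicate number as a block, 8 members and 7447 liver genes were called, and no call of a member changed. In LSEC the member count was 0 at a threshold of 0.01 and 0 without any 1 library (lowest 0, highest 0), because the call of Tap1 ended. The count of all LSEC genes was 2503 with DESeq2, 126 at the threshold of 0.01, and 124 (without the third NASH library) to 1171 without 1 library; leaving out NASH library 1 gave 474, NASH library 2 gave 241 and chow library 3 gave 255. The difference between tissues was called for 4 to 6 members, and for 1843 to 3179 genes without 1 library, with the lowest counts without the third LSEC chow (1843) or the third LSEC NASH library (1870). The cause of these moves was not tested; fits without a library have fewer samples.

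The signs below turned for values that were not called. With scaling by total reads Nlrc5 was 0.40 in liver, Tap2 0.05 and Tapbp 0.10 in LSEC, and the tissue difference 0.24 for H2-K1 and 0.15 for Nlrc5. B2m in LSEC was -0.01 with edgeR and with DESeq2, and the difference for H2-K1 was 0.05 with edgeR. Without 1 library, Nlrc5 ranged from -0.11 to 0.15 in liver. In LSEC the ranges were -0.07 to 0.28 for Nlrc5, -0.32 to 0.01 for H2-D1, -0.20 to 0.23 for B2m, -0.12 to 0.05 for Tapbp and -0.27 to 0.02 for Psmb9. For the difference they were -0.16 to 0.10 for H2-K1, -0.02 to 0.28 for Tap1 and -0.29 to 0.05 for Nlrc5. The subunit ratios moved by less than the spread between libraries under each alternative.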
